A study of Mus musculus with 2 samples.

Results

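The Tmcc family was followed across the cell classes of mouse bone marrow. It has 3 members among the 32286 features counted, Tmcc1, Tmcc2 and Tmcc3, which were taken by their symbols. They were picked with results of these data in view, because Tmcc1 was much lower in neutrophils and monocytes of one library and Tmcc2 marked late erythroblasts. Those values are therefore given as descriptions and are not used as support for anything else. Bone marrow hematopoietic cells were profiled with a droplet-based 3′ kit, which counts unique molecular identifiers (UMIs), in 2 libraries with 1 library per genotype. The control library is Mx1Cre+/-;Rosa26+/+. The MYC library is Mx1Cre+/-;Rosa26LSL-MYC/LSL-MYC. Both genotypes thus carry the Mx1Cre allele, and they differ in the MYC cassette behind a loxP-flanked stop at both Rosa26 alleles. Mx1-Cre is driven by an interferon-inducible promoter and is active in hematopoietic stem cells and in other interferon-responsive cells. The labels give no inducing treatment, age, sex or number of animals. A feature named MYC, whose sequence is not stated, had 0 UMIs in the control and 295 UMIs in 273 kept cells of the MYC library. With 1 library per genotype no test was possible, so no p-value is given, and every interval below is at 95% and covers counting error only.

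The members encode transmembrane and coiled-coil proteins of the endoplasmic reticulum (ER), the membrane network that makes lipids and secreted proteins. TMCC1 is known for its place at contacts between the ER and endosomes, where it works with coronin 1C in the fission of endosome tubules. TMCC3 is known from the branch points of ER tubules, where it binds atlastins, the GTPases that fuse them. TMCC2 is less well understood, and its transcript is known as abundant in maturing red cells. Neutrophils mature in the marrow from granule-forming progenitors to segmented cells, and erythroblasts fill with haemoglobin while they lose their organelles, ER included.

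All 3 members are protein-coding genes in the GENCODE annotation of GRCm38, the build named in the submitters' processing notes. Tmcc1 (ENSMUSG00000030126) lies on the minus strand of chromosome 6 at 116018611 to 116193486 and has 7 coding transcripts. Tmcc2 (ENSMUSG00000042066) lies on the minus strand of chromosome 1 at 132356315 to 132391281 and has 3 coding transcripts. Tmcc3 (ENSMUSG00000020023) lies on the plus strand of chromosome 10 at 94311949 to 94590956 and has 7 coding transcripts. An antisense gene, Tmcc3os, overlaps Tmcc3 and had 1 UMI in the control against 0 in the MYC library. A 3′ count per gene does not tell the transcripts of a member apart.

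RefSeq promoter windows (GRCm38.p6) were at hand for 2 of the 3 members, Tmcc2 with 3 starts and Tmcc3 with 6. The 250 bases before each Tmcc2 start are shown, because Tmcc2 had the largest step in level along a lineage among the members. GATA, the core of the sites of GATA1, the master regulator of erythroid genes, was searched on both strands (GATA or TATC), and each match is in capitals. The windows are given 5′ to 3′ on the gene's minus strand, from the start inside the gene to the outermost one.
Tmcc2, chr1:132367949-132368198: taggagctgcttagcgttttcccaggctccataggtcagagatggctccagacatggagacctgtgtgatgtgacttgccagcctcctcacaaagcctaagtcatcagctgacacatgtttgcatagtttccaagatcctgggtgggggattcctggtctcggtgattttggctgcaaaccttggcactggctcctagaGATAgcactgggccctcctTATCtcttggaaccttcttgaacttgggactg
Tmcc2, chr1:132390319-132390568: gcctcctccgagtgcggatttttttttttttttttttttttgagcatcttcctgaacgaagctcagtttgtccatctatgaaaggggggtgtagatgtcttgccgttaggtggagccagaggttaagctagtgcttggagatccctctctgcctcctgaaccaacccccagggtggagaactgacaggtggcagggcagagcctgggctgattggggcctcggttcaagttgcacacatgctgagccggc
Tmcc2, chr1:132391387-132391636: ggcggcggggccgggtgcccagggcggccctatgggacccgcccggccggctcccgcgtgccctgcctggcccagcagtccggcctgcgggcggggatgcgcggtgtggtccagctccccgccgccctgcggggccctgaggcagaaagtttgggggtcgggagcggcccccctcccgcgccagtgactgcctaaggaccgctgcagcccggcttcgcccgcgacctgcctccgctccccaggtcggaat
The inner window held 2 matches of GATA and the other Tmcc2 windows held 0. The 6 Tmcc3 windows held 0 to 3 matches, and Tmcc3 was sparse in erythroid cells. At least 1 match was present in 53.6% of all 32851 windows of this length in the table, so its presence is common. CACCC, the core bound by KLF1-type factors, was found 1, 2 and 1 times in the Tmcc2 windows in the order shown (CACCC or GGGTG, both strands) and at least once in 52.0% of all windows. The outermost Tmcc2 window had a GC content of 78.0%, against 52.0% and 52.8% in the inner ones. The counts do not show which start was used in which cells.

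Cell classes came from clusters of both libraries together, named from marker genes. The 3 members, the listed genes below, Myc and MYC were kept out of the genes used for clustering. The control gave 14760 kept cells with 119905786 UMIs and the MYC library 12645 kept cells with 102740700 UMIs. The libraries shared 77 barcodes among kept cells. Levels are UMIs of a gene per 1000000 UMIs of all cells of the class (CPM). With a 3′ kit they were not scaled by length, and differences in capture between genes were not corrected for. Of 61 markers of the 7 neutrophil, monocyte and erythroid classes, 58 were higher in their class than over all kept cells in both libraries, such as Elane at 7968 and 8359 CPM in granulocyte progenitors and Retnlg at 21310 and 34000 CPM in mature neutrophils. The other 3 were markers of early erythroid cells, Cnrip1 at 0 and 0.30 CPM, and Apoe and Gata2. In the control these last had 54.5 and 25.5 CPM there against 101 and 37.9 CPM over all kept cells. Since the clusters were named from these same markers, high values in their class are largely built in. The late erythroblasts of the MYC library stood apart. Their median was 1795 UMIs per cell against 4150 in the control, haemoglobin genes took 19.6% against 31.5% of their UMIs, and the 9 late erythroblast markers took 0.706% against 1.30%. The neutrophil genes S100a8 and S100a9 took 6.32% against 2.19% there. The part of these differences in the Tmcc2 values was not tested. An unnamed cluster of few UMIs, holding 2485 control cells and 2638 MYC-library cells, was left out of the classes.

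Tmcc1 was the member with the most UMIs, 30678 over the kept control cells and 9780 over those of the MYC library. The neutrophil lineage, that is granulocyte progenitors with immature and mature neutrophils, held 77.1% and 74.6% of these. Within it Tmcc1 stood at 464 CPM (458 to 470) in the control against 142 CPM (139 to 146) in the MYC library. The intervals did not overlap, and the log2 ratio, MYC over control, was -1.71 (-1.74 to -1.67), a level 3.26-fold higher in the control. On the log2 scale of CPM plus 1 used to compare genes, Tmcc1 was the 1 member of 3 at least 2-fold lower in the lineage, where 1.69 percent of the 11668 genes with at least 50 UMIs were. The median of these genes was -0.22. The added 1 CPM decides this count for Tmcc3, which was at 1.67 and 0.468 CPM, 3.56-fold (2.24 to 5.86) higher in the control on plain CPM and -0.86 on that scale. Since this contrast chose the gene, the value is a description.

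The level of Tmcc1 increased with neutrophil maturation in both libraries. Granulocyte progenitors, the cells that make primary granules, had 75.5 CPM (71.0 to 80.2) in the control against 16.6 CPM (14.3 to 19.2) in the MYC library. Immature neutrophils, which make secondary granules, had 387 CPM (380 to 395) and 119 CPM (115 to 123). Mature neutrophils had 1165 CPM (1145 to 1186) and 342 CPM (330 to 353). Every stage was thus lower in the MYC library, and the order of the stages was the same. Mature neutrophils exceeded granulocyte progenitors by a log2 ratio of 3.95 (3.86 to 4.04) in the control against 4.36 (4.14 to 4.58) in the MYC library. In that step 16.7 percent of 10080 control genes and 17.3 percent of 9573 genes in the MYC library were at least 2-fold higher. Mature neutrophils held fewer UMIs per cell than progenitors, with medians of 3554 against 17356 in the control. Counted per cell and not per UMI, the log2 step of Tmcc1 was 1.64 in the control and 2.50 with MYC.

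The difference between libraries was present in each stage. The log2 ratio was -2.18 (-2.42 to -1.95) in granulocyte progenitors, -1.70 (-1.75 to -1.64) in immature and -1.77 (-1.82 to -1.72) in mature neutrophils. Mature neutrophils were split by library: clusters 0 and 2, led by Il1b and by Mmp8 with Retnlg, held mostly control cells (1816 against 167 and 855 against 167), and cluster 3, led by Cstdc4 and Cxcl2, held mostly cells of the MYC library (202 against 1776). Within cluster 3 Tmcc1 was at 1230 CPM in the 202 control cells and 336 CPM in the 1776 cells of the MYC library. Within cluster 0 it was at 1166 and 338 CPM, and within cluster 2 at 1149 and 406 CPM. Tmcc1 levels of one library were thus close across these clusters, and far from those of the other library. Over all 9 neutrophil and monocyte clusters the log2 ratios lay between -2.18 and -1.50, and over 17 clusters of a finer division between -2.22 and -1.24.

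**Figure D1:**
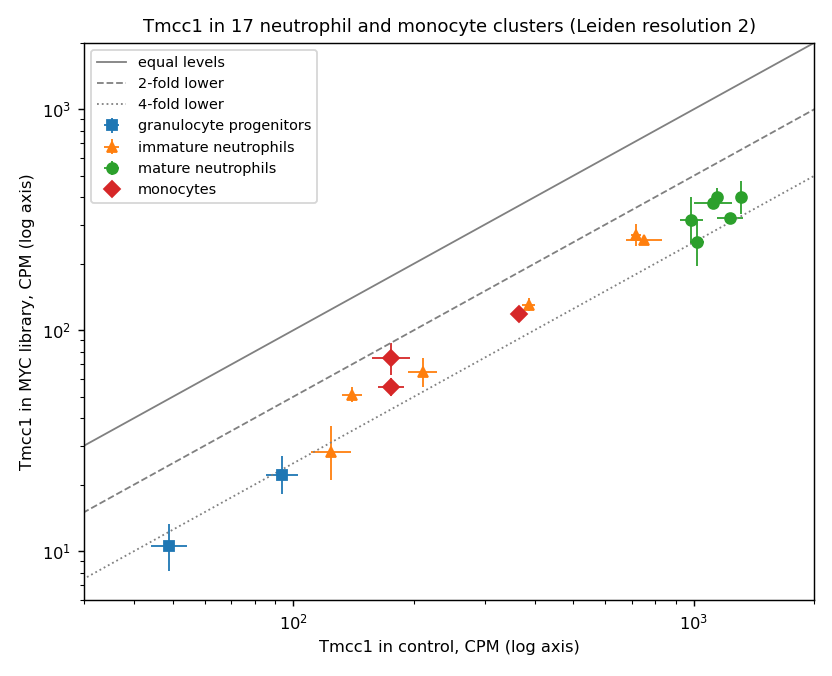
Tmcc1 level (CPM, log axes) in the control (x) and in the MYC library (y) in each of 17 neutrophil and monocyte clusters, with 95% Poisson intervals as bars and lines of equal, 2-fold lower and 4-fold lower level. All 17 points lie below the line of 2-fold lower, from 49.0 to 1313 CPM in the control and 10.5 to 400 CPM in the MYC library.

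The share of cells with a Tmcc1 UMI moved the same way. At least 1 Tmcc1 UMI was seen in 87.2% of neutrophil-lineage cells in the control and 59.5% with MYC. With each cell thinned to 1000 UMIs the shares were 45.6% (44.4% to 46.9%) and 18.9% (17.9% to 19.9%). Per 100 cells there were 352 and 123 Tmcc1 UMIs, although the cells of the MYC library held more UMIs in all, with medians of 6882 against 5318. Erythroid cells, where Tmcc1 was among the lowest, had thinned shares of 2.47% and 2.97%, far below the neutrophil shares.

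Monocytes, the circulating precursors of tissue macrophages, had 193 CPM (187 to 200) of Tmcc1 in the control against 62.1 CPM (59.1 to 65.2) in the MYC library. The intervals were far apart and the log2 ratio was -1.64 (-1.72 to -1.55). Tmcc1 and Tmcc3 were the 2 members of 3 at least 2-fold lower there on the scale of CPM plus 1, where 2.38 percent of 11071 genes were. The cluster led by Fn1 and S100a4 went from 354 to 118 CPM, and the cluster led by F13a1 from 118 to 41.7 CPM. Neutrophil RNA was present here too. S100a8 and S100a9 took 1.01% and 1.06% of monocyte UMIs, and immature neutrophil markers 0.428% and 0.387%. The part of this in the Tmcc1 values of monocytes was not tested.

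Tmcc1 was also counted in the other classes. Over 17 classes Tmcc1 had a lower CPM in the MYC library in 16, and the interval of the ratio lay below 0 in 14 and included 0 in 3. Conventional dendritic cells present antigen, and their cluster was led by MHC class II genes with Ace and Adgre4, which nonclassical monocytes are also known to express. They had 255 CPM (236 to 275) and 79.9 CPM (68.2 to 93.1). Their log2 ratio of -1.67 (-1.93 to -1.43) was close to that of monocytes, and 4.05 percent of 7340 genes were at least 2-fold lower there. Stem or multipotent progenitors had 35.7 CPM (30.6 to 41.4) and 15.1 CPM (11.6 to 19.5), a log2 ratio of -1.24 (-1.69 to -0.81), with 1.32 percent of 9503 genes at least 2-fold lower. Basophils or mast cells had 93.8 and 38.1 CPM, a log2 ratio of -1.30 (-1.76 to -0.85), with 3.97 percent of 6602 genes at least 2-fold lower. Tmcc1 was past 2-fold lower in each of these 3 classes. Neutrophil RNA was present in them too. S100a8 and S100a9 took 20.4% and 24.1% of UMIs in the neutrophil lineage, 0.936% and 1.64% in conventional dendritic cells, 0.549% and 0.512% in stem or multipotent progenitors and 1.78% and 1.54% in basophils or mast cells. All 9 mature neutrophil markers were detected in each, at 0.0282% to 0.193% of UMIs. The unnamed cluster of few UMIs held Tmcc1 at 175 and 55.8 CPM. Free RNA was not corrected for, and its part in the Tmcc1 values of classes outside the neutrophil lineage, monocytes included, was not tested. In macrophages 107 and 32.7 CPM gave -1.71 (-2.23 to -1.16), but the class was made of different clusters in each library. Its clusters had ratios of -0.80 (-1.96 to 0.67) and -0.83 (-2.08 to 0.26), and both intervals included 0.

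In erythroid cells the ratio of Tmcc1 varied with the stage. Haemoglobinizing erythroblasts were at 27.5 and 11.7 CPM, a log2 ratio of -1.23 (-1.78 to -0.73) that became -0.57 in a coarser division (Leiden resolution 0.5) and -0.31 when only cells reaching 1000 UMIs and 500 genes were kept. S100a8 and S100a9 took 0.786% and 0.512% of UMIs in these cells. Early erythroid cells were at 24.9 and 14.5 CPM, with a ratio of -0.78 (-1.26 to -0.32). In mature B cells Tmcc1 was at 64.4 and 35.9 CPM, a log2 ratio of -0.84 (-1.51 to -0.23), and in plasma cells, the antibody-secreting cells with the largest ER, at 49.9 and 34.7 CPM, a ratio of -0.53 (-0.95 to -0.12). In T or NK cells, a cluster led by genes of both cell types, 70.03 and 54.8 CPM gave a ratio of -0.35, and its interval of -0.85 to 0.11 included 0. Late erythroblasts were the class with the higher CPM in the MYC library, 51.6 (42.1 to 62.6) against 64.3 (50.4 to 80.8), with a ratio of 0.32 (-0.14 to 0.76) that also included 0 and lay below the median of 0.63 of the genes there. The sign of that ratio was not stable, with -0.33 under median-of-ratios scaling, -0.68 with doublets kept and 1.37 with each library clustered on its own. These intervals of T or NK cells and of late erythroblasts do not reach the ratio of the neutrophil lineage. The difference between classes itself was not tested. S100a8 and S100a9 took 1.21% and 2.33% of UMIs in T or NK cells and 2.19% and 6.32% in late erythroblasts. They took 0.611% and 1.07% in early erythroid cells, 0.526% and 1.43% in mature B cells and 0.831% and 1.67% in plasma cells. The part of neutrophil RNA in the Tmcc1 ratios of these classes was not tested.

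The order of Tmcc1 levels was headed in both libraries by mature neutrophils, immature neutrophils and conventional dendritic cells. In the control the first 4 classes, monocytes being the fourth, had intervals clear of each other, and below them neighbours mostly overlapped. In the MYC library conventional dendritic cells overlapped late erythroblasts, and these overlapped monocytes. Granulocyte progenitors took rank 9 of 17 in the control against rank 14 in the MYC library, beside stem or multipotent progenitors, early erythroid cells and haemoglobinizing erythroblasts.

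**Figure D2:**
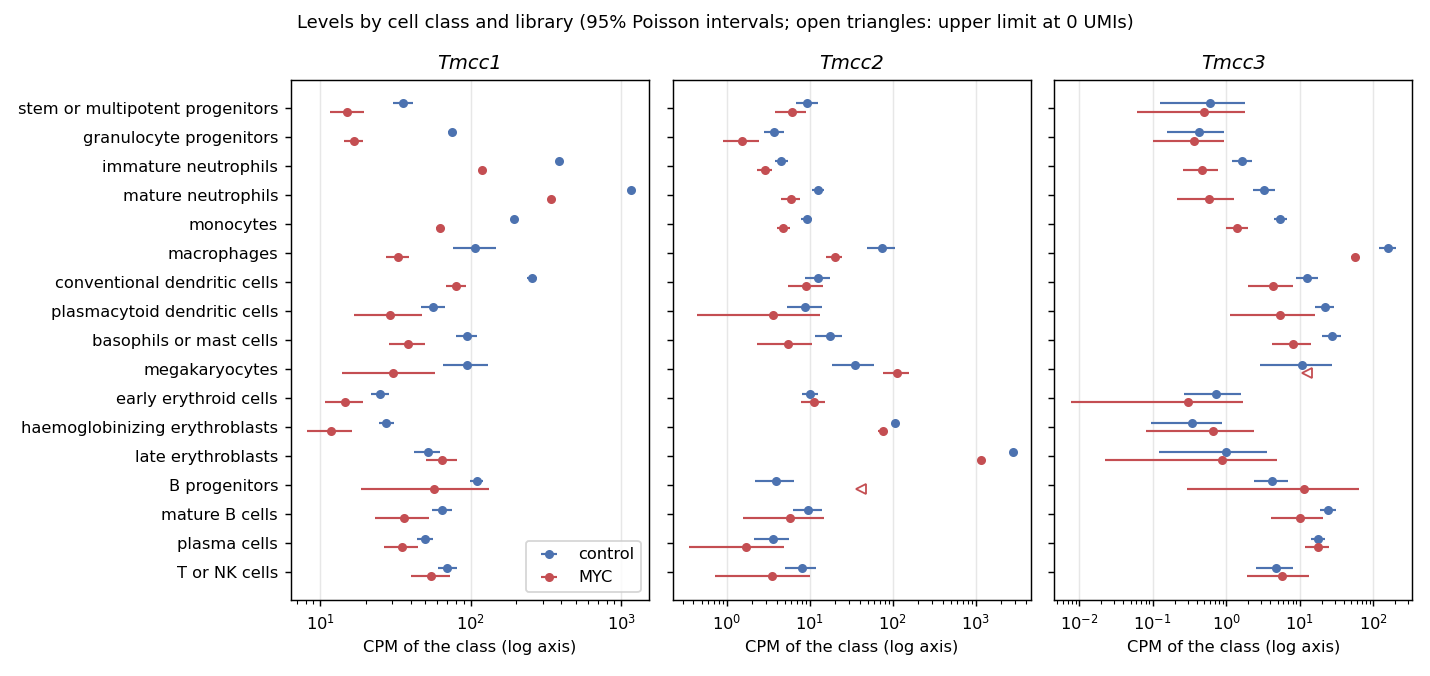
Level of each member (CPM of the class, log axis) in 17 cell classes, control in blue and MYC library in red, with 95% Poisson intervals as bars and open triangles for the upper limit where no UMI was counted. Tmcc1 peaks in mature neutrophils at 1165 and 342 CPM, Tmcc2 in late erythroblasts at 2832 and 1166 CPM, and Tmcc3 in macrophages at 159 and 56.3 CPM.

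Tmcc2 was close to a single-stage transcript. Late erythroblasts, the last nucleated red cell precursors, were 384 of the control cells and 283 of the cells of the MYC library, and held 71.5% of all Tmcc2 UMIs in the control against 60.6% in the MYC library. Early erythroid cells had 10.2 CPM (8.17 to 12.7) and 11.2 CPM (7.88 to 15.4) from 85 and 37 UMIs, with overlapping intervals, and 26 of the 37 UMIs came from 1 cell. Haemoglobinizing erythroblasts had 106 CPM (100 to 112) and 75.6 CPM (66.1 to 86.1). Late erythroblasts had 2832 CPM (2758 to 2906) and 1166 CPM (1104 to 1230). Late over early erythroid cells, the log2 ratio was 8.11 (7.80 to 8.44) in the control against 6.70 (6.23 to 7.21) in the MYC library, and without haemoglobin genes in the totals 8.65 and 7.01. At least 2-fold higher in that step were 9.15 percent of 8625 control genes and 13.1 percent of 6892 genes in the MYC library. Tmcc2 was the gene with the largest fold over other clusters in the late erythroblast cluster, so the height of its peak is a description of that cluster.

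Between libraries, Tmcc2 in late erythroblasts had a log2 ratio of -1.28 (-1.37 to -1.19), or 2.43-fold more in the control. It was 1 of the 2 members with at least 50 UMIs there and the one at least 2-fold lower, where 4.04 percent of 4284 genes were and 25.5 percent were at least 2-fold higher. The median of these genes was 0.63, and 1.98% of them were as low as Tmcc2 or lower. In haemoglobinizing erythroblasts the ratio was -0.49 (-0.70 to -0.28), but its direction depended on the cells kept, with -1.07 when each library was clustered on its own, 0.038 with doublets kept and 0.84 at minima of 1000 UMIs and 500 genes. In early erythroid cells it was 0.13 (-0.47 to 0.70), whose interval includes 0.

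The ratio in late erythroblasts depended on which cells were set against each other. With median-of-ratios scaling it was -1.93, and it was -0.14 when cells had to reach 1000 UMIs and 500 genes. In a finer division 2 clusters carried the name, over a somewhat different set of cells. The one with Tmcc2-rich cells, 347 control cells and 85 of the MYC library with haemoglobin at 36.3% and 37.1% of UMIs, had 2704 CPM (2635 to 2773) and 2230 CPM (2103 to 2363), a log2 ratio of -0.28 (-0.37 to -0.19). The other, 120 and 210 cells with haemoglobin at 10.7% and 6.65%, had 163 CPM (132 to 198) and 357 CPM (313 to 406), a ratio of 1.14 (0.79 to 1.49). Most control cells thus lay in the Tmcc2-rich cluster and most cells of the MYC library in the poorer one, and within each cluster the ratio was nearer to 0 or of the other sign. Cell by cell, 202 of 384 control cells (52.6%) and 41 of 283 MYC-library cells (14.5%) had at least 10 Tmcc2 UMIs, with highest values of 69 and 51 UMIs. Cells with 0 Tmcc2 UMIs were 22.4% and 45.2%, and these were shallow, with medians of 1492 and 1482 UMIs.

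Erythroid cells were also set side by side at like haemoglobin shares, with haemoglobin genes left out of the totals. Below 10% haemoglobin Tmcc2 was at 49.8 and 69.5 CPM, a log2 ratio of 0.48 (0.29 to 0.67), but the cells there differed in depth, with medians of 19239 UMIs in 693 control cells and 3413 UMIs in 357 MYC-library cells. At 10 to 30% Tmcc2 was at 265 CPM in 465 control cells and 318 CPM in 130 MYC-library cells, for a log2 ratio of 0.27 (0.10 to 0.43). At 30 to 50% it was at 4673 CPM in 226 control cells and 1304 CPM in 73 MYC-library cells, a ratio of -1.84 (-1.97 to -1.71). At 50 to 70% it was at 8667 CPM in 41 and 4280 CPM in 19 cells, a ratio of -1.02 (-1.23 to -0.81). Depth differed in these ranges as well, with medians of 6822 UMIs in control cells against 9557 UMIs in MYC-library cells at 30 to 50%, and 4205 against 7473 at 50 to 70%. Grouped by haemoglobin, the lower level was seen in the cells richest in haemoglobin, in contrast to the small ratio of the Tmcc2-rich cluster.

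**Figure D3:**
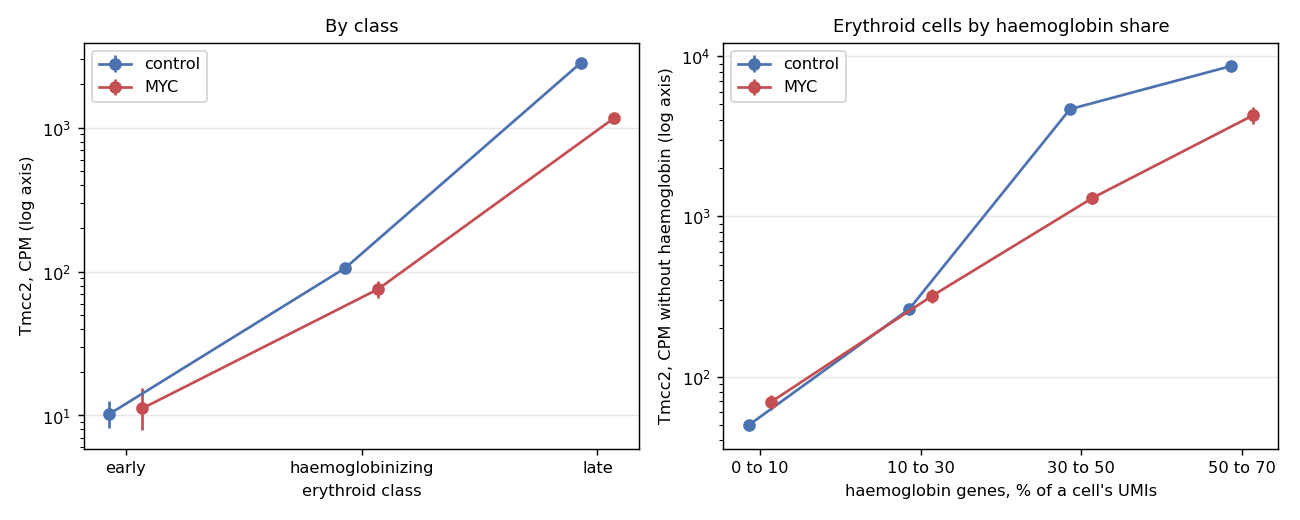
Tmcc2 (log axes) in the control in blue and the MYC library in red, with 95% Poisson intervals: left, CPM in the 3 erythroid classes, and right, CPM without haemoglobin genes in erythroid cells grouped by the haemoglobin share of their UMIs. Levels climb from 10.2 to 2832 CPM and from 11.2 to 1166 CPM with class, and the control is higher above a haemoglobin share of 30%, at 4673 against 1304 CPM for 30 to 50%, while the MYC library is higher below it, at 49.8 against 69.5 CPM under 10%.

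Thinned to 1000 UMIs, 72.8% of late erythroblasts in the control against 36.4% in the MYC library had a Tmcc2 UMI, and unthinned 77.6% and 54.8%. In the neutrophil lineage, set beside them as a class outside the erythroid lineage, the thinned shares were 0.914% and 0.583%. Outside the erythroid classes, levels lay between 3.62 and 74.1 CPM in the control, with a median of 9.27 CPM over 14 classes. The neutrophil lineage had 6.04 CPM (5.39 to 6.76) and 3.20 CPM (2.73 to 3.73), a log2 ratio of -0.92 (-1.20 to -0.64). Haemoglobin genes, which neutrophils do not make, went from 0.147% to 0.0903% of UMIs in the same cells, and 4 of the 19 erythroid maturation genes tested were at least 2-fold lower there, beside 1.69 percent of all genes, and 3 with median-of-ratios scaling, beside 0.651 percent. Among these Sptb and Dmtn, membrane skeleton genes of red cells, had ratios of -1.70 and -1.82. The part of erythroid RNA in the neutrophil values of Tmcc2 was not tested.

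A few cells carried the other high values. In control macrophages 21 of the 27 Tmcc2 UMIs came from 1 cell of 70. In megakaryocytes, the platelet-forming cells, Tmcc2 went from 34.9 to 112 CPM, but 32 of the 33 UMIs of the MYC library came from 1 cell of 60, and 10 of the 13 control UMIs from 1 cell of 58. Basophils or mast cells had 30 and 8 UMIs, 17.4 and 5.44 CPM, with a log2 ratio of -1.67 (-3.01 to -0.51), and 20 of the 30 control UMIs came from 1 cell. In the order of levels, haemoglobinizing erythroblasts and macrophages overlapped in the control behind the late erythroblasts, and below them the intervals of neighbours overlapped. In the MYC library megakaryocytes, set by 1 cell, overlapped haemoglobinizing erythroblasts, which stood clear of macrophages at 19.98 CPM.

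Tmcc3 was sparse, with 586 and 383 UMIs in the kept cells of control and MYC library, and its pattern differed from both. The macrophage class was highest in both libraries. It had 159 CPM (121 to 206) from 58 UMIs in the control and 56.3 CPM (49.4 to 64.0) from 234 UMIs in the MYC library. The ratio of -1.50 (-1.92 to -1.06) sets unlike cells against each other, because the control class was mostly a cluster led by Mrc1 and Cd5l (51 of 70 cells) and the class of the MYC library mostly a cluster led by C1qb, Fabp4 and Fcgr4 (648 of 676 cells). Within the first cluster Tmcc3 was at 204 and 113 CPM, a ratio of -0.85 (-1.82 to 0.02). Within the second it was at 54.9 CPM from 6 UMIs and 54.6 CPM from 220 UMIs, a ratio of -0.01 (-1.15 to 1.45). Neither interval excluded 0. Leading genes of the second cluster also included Cd300e and Tcf7l2. For both clusters monocyte was the type with the next best marker score. Macrophages held 61.1% of the Tmcc3 UMIs of the MYC library and 9.90% of those of the control, along with 676 against 70 cells. In macrophages 11.2 percent of 7128 genes were at least 2-fold lower, all 3 members among them. For Tmcc2 that rests on few cells, as given above, and its ratio of -1.89 turned to between 0.95 and 1.13 in 3 alternative sets of cells. Within the clusters it was 1.08 (-1.44 to 6.4) from 1 control UMI and -1.34 (-3.08 to 0.07), with both intervals including 0. That of Tmcc3 turned to 0.17 and 0.033 in 2 sets.

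The lymphoid classes differed among themselves in Tmcc3. Mature B cells had 24.4 CPM (18.9 to 31.1) from 66 UMIs in the control and 10.0 CPM (4.04 to 20.7) from 7 UMIs in the MYC library, for a log2 ratio of -1.28 (-2.65 to -0.16). Plasma cells had 17.7 CPM (14.2 to 21.8) and 17.6 CPM, a ratio of -0.01 (-0.65 to 0.60). In T or NK cells 13 and 5 UMIs gave 4.72 and 5.83 CPM, in the control near the 5.44 CPM of monocytes. The interval of plasma cells leaves room for a difference in either direction, so equal levels are not shown. B progenitors held 16 UMIs in 475 control cells and 1 UMI in 18 cells of the MYC library, too few to compare.

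Among myeloid cells Tmcc3 was at 5.44 CPM (4.42 to 6.64) in control monocytes and 1.41 CPM (0.988 to 1.95) in the MYC library, for a log2 ratio of -1.95 (-2.54 to -1.38). Both monocyte clusters had intervals below 0, at -2.19 (-3.08 to -1.38) and -1.47 (-2.34 to -0.65). The neutrophil lineage had 1.67 CPM (1.33 to 2.06) and 0.468 CPM (0.300 to 0.696), a ratio of -1.83 (-2.55 to -1.17) from 85 and 24 UMIs. In that lineage plasma cell markers went from 0.0163% to 0.00952% of UMIs and macrophage markers from 0.0188% to 0.0154%. In monocytes they went from 0.0238% to 0.0156% and from 0.00603% to 0.00408%. The part of RNA from other cells in these Tmcc3 values was not tested. Plasmacytoid dendritic cells, the interferon-making cells, had 47 and 3 UMIs, 22.0 and 5.46 CPM, a ratio of -2.01 (-4.34 to -0.38). Basophils or mast cells had 47 and 12 UMIs, 27.2 and 8.17 CPM, with a ratio of -1.74 (-2.79 to -0.80). Thinned shares were too low to compare, at 0.557% and 0.185% of monocytes. Erythroid cells had 12 and 4 UMIs, 0.546 and 0.538 CPM.

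In the order of Tmcc3 levels macrophages stood clear of every other class in the control. In the MYC library they stood clear of all but B progenitors, whose 1 UMI gave 11.4 CPM with a wide interval of 0.289 to 63.6. The next 5 in the control, from basophils or mast cells at 27.2 CPM to conventional dendritic cells at 12.7 CPM, overlapped from neighbour to neighbour. In the MYC library plasma cells came second at 17.6 CPM, and neighbours overlapped from there to conventional dendritic cells at 4.33 CPM.

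**Figure D4:**
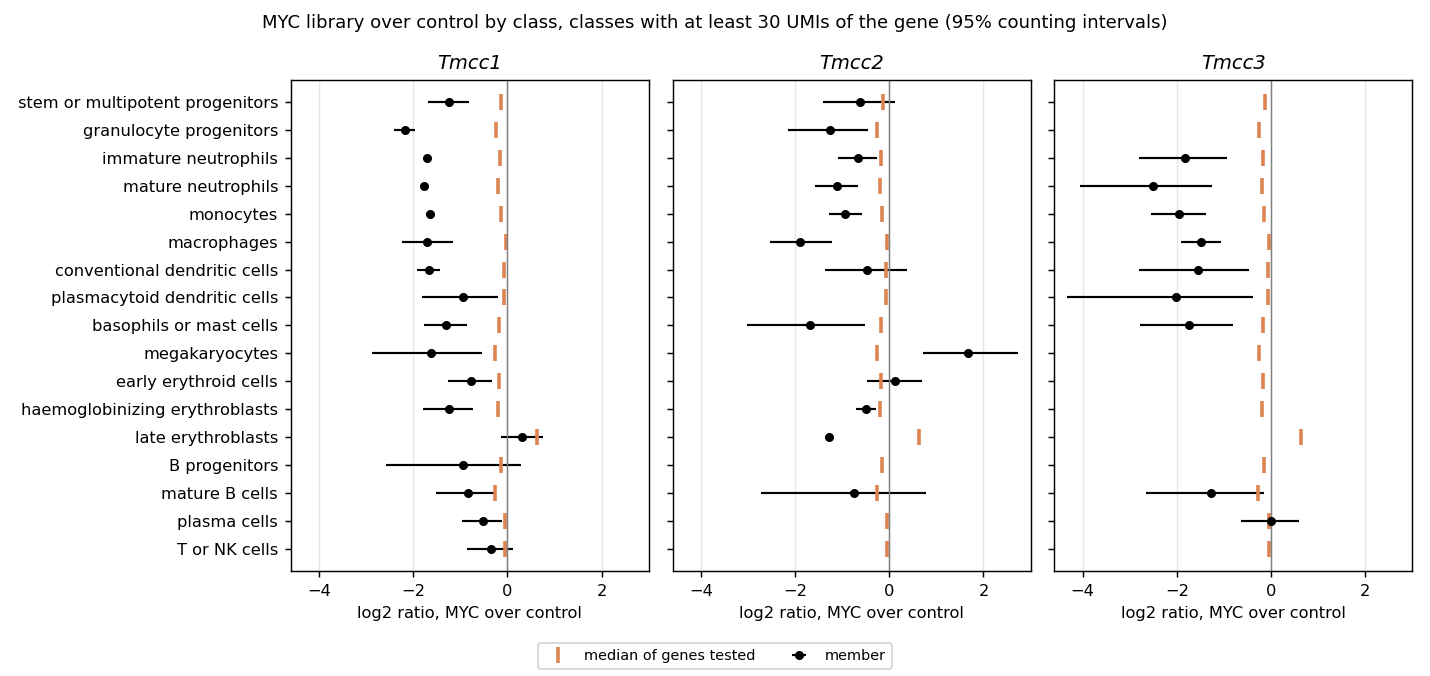
Log2 ratio, MYC over control, of each member by class (black points with 95% counting intervals, classes with at least 30 UMIs of the gene) and the median of the genes tested in the class (orange ticks). Tmcc1 points lie below 0 in all classes shown but late erythroblasts, at 0.32 (-0.33 with median-of-ratios scaling), and the Tmcc2 point at 1.68 in megakaryocytes rests on 1 cell.

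Like most genes, the ER-shaping and ER-endosome contact genes with at least 50 UMIs stayed within 2-fold in the neutrophil lineage and in monocytes. This holds on the scale of CPM plus 1. On plain CPM 1 of them did not, the reticulon gene Rtn1 in monocytes, with 75 and 49 UMIs, 4.21 and 1.92 CPM and a ratio of -1.13 (-1.68 to -0.59). Of 20 ER-shaping genes, 16 had at least 50 UMIs in the neutrophil lineage, and 0 of them were at least 2-fold lower or higher, with a median log2 ratio of -0.06 against -0.22 over all genes, where 1.69 percent were lower and 0.506 percent higher. Of 25 genes of ER-endosome contacts and endosome fission, all 25 had enough UMIs and 0 were past 2-fold, with a median of -0.12. With so small a share of all genes past 2-fold, counts of 0 do not set these lists apart. Smaller differences were common, and the interval of the ratio lay below 0 for 7 and above 0 for 3 of the 16 ER-shaping genes, and below 0 for 15 and above 0 for 7 of the 25 contact genes. The counts were also 0 and 0 in monocytes, with medians of -0.14 and -0.11 against -0.14 over all genes, where 2.38 percent were lower and 0.912 percent higher. Intervals there lay below 0 for 8 of 15 ER-shaping and 11 of 25 contact genes, and above 0 for 3 and 5. Scaling to the typical gene by median of ratios raised every ratio by 0.26 in the lineage and 0.16 in monocytes, left these counts at 0, and turned both list medians positive. With that scaling 0.651 percent of all genes were at least 2-fold lower and 1.46 percent higher in the lineage, and 1.49 percent lower and 2.02 percent higher in monocytes. The ratios of single genes that follow are on plain CPM. Coronin 1C, the fission partner of TMCC1, had 34.9 and 31.0 CPM of Coro1c in the neutrophil lineage, a ratio of -0.17 (-0.27 to -0.07), and 78.9 and 77.4 CPM in monocytes, a ratio of -0.03 (-0.13 to 0.07). Under median-of-ratios scaling these became 0.09 and 0.13, on the other side of 0. The atlastin genes Atl2 and Atl3 had ratios of -0.33 and -0.35 in the neutrophil lineage, and Lnpk, which encodes the junction protein lunapark, -0.36; with that scaling all 3 lay between -0.10 and -0.07. In monocytes Atl2 and Atl3 were at -0.37 and -0.37 and Lnpk at 0.05, and Atl1 was too sparse there. Among the ER-shaping and contact genes, the lowest in the lineage included Rtn3, a reticulon that curves ER tubules, at -0.57. The lipid transfer gene Vps13c and the contact genes Mospd2 and Pdzd8 were at -0.67, -0.67 and -0.65. The highest ER-shaping and contact genes were Jagn1 at 0.54, the retromer gene Vps29 at 0.51 and Anxa1 at 0.48. Jagn1 is an ER gene needed for neutrophil granules.

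Part of the list of erythroid membrane skeleton and late maturation genes was also lower in the MYC library. In late erythroblasts 7 of its 20 genes were at least 2-fold lower and 0 at least 2-fold higher, with a median of -0.89 against 0.63 over all genes, where 4.04 percent were lower and 25.5 percent higher. Median-of-ratios scaling lowered ratios there by 0.65, which put 15 of the 20 past 2-fold lower, beside 11.4 percent of all genes lower and 3.13 percent higher with that scaling. Ank1, Rhd and Pim1 were not lower there, at 326 and 376, 329 and 351, and 607 and 651 CPM. The list counts, like the Tmcc2 ratio, depended on the cells compared, in a check added after the data were seen. With each library clustered on its own 12 of 20 were lower and 0 higher, with a median of -1.21 against 1.67 over all genes. There 7.23 percent of all genes were lower and 66.8 percent higher. By markers alone 10 were lower and 0 higher, beside 9.34 percent and 25.8 percent of all genes, with medians of -1.05 and 0.39. At resolutions 0.5 and 2, with doublets kept and under 5% mitochondrial UMIs 4 to 8 were lower, beside 4.19 to 10.2 percent of genes. At minima of 1000 UMIs and 500 genes 3 of 20 were lower and 0 higher, with a median of -0.37 against 0.19 over all genes, where 11.4 percent were lower and 23.0 percent higher. In the Tmcc2-rich cluster of the finer division 5 of 20 were lower and 0 higher, with a median of -0.63 against -0.05, where 16.1 percent were lower and 17.0 percent higher. In the poorer cluster 0 of 19 were lower and 1 higher, with a median of 0.03 against 0.01, where 3.23 percent were lower and 3.68 percent higher. Over all erythroid cells 5 were lower and 1 higher, with a median of -0.81 against -0.02 over all genes, where 2.66 percent were lower and 3.32 percent higher. The mix of stages in that pooled class differed, with 254 early, 787 haemoglobinizing and 384 late cells in the control against 97, 200 and 283 in the MYC library, and its part in these counts was not tested. Among the lower ones, Sptb, a membrane skeleton gene, had 499 and 213 CPM, with a ratio of -1.23 (-1.30 to -1.15). Pim1, a kinase gene, was the one higher, at 124 and 269 CPM. ER-shaping genes in late erythroblasts had 0 of 13 at least 2-fold lower and 3 at least 2-fold higher, and contact genes 0 and 7 of 13, which became 1 and 0, and 0 and 3, with that scaling. The libraries' late erythroblasts differed in neutrophil RNA and depth as given above, and the part of this in the list counts was not tested.

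**Figure D5:**
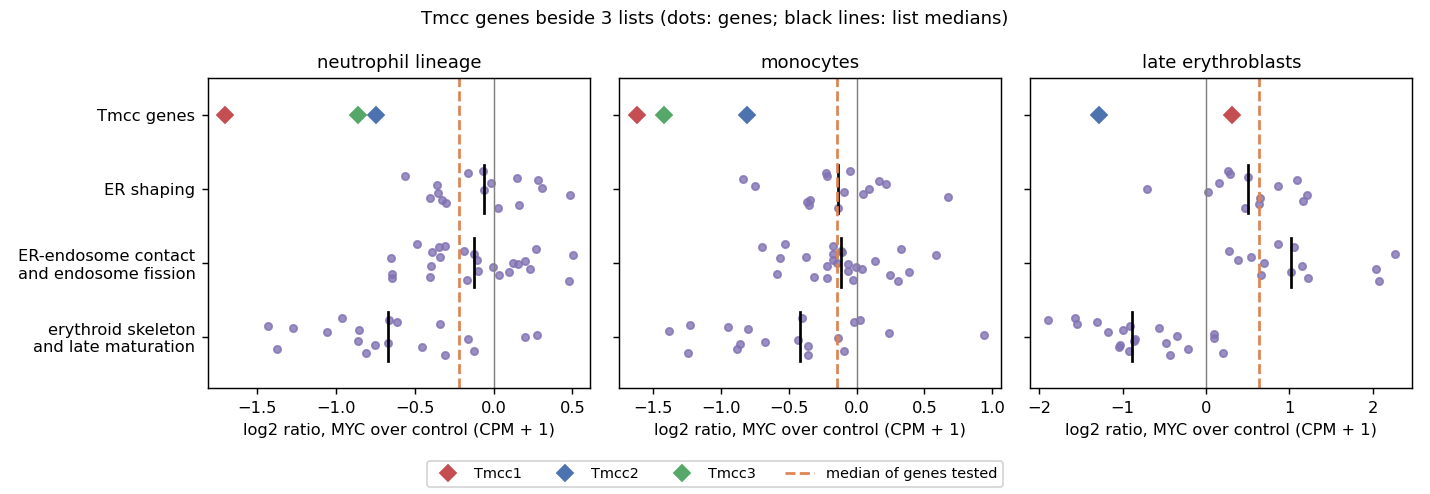
Log2 ratio, MYC over control, on the scale of CPM plus 1, for the Tmcc genes (diamonds) and the genes of the 3 lists (dots, with list medians in black) in 3 classes. Tmcc1 lies below every ER-shaping and contact gene in the neutrophil lineage and in monocytes, and in late erythroblasts Tmcc2 lies among the erythroid maturation genes, whose median is -0.89.

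The genes whose profile was most like each member were sought over 22 points, 11 classes with at least 100 cells per library in each of 2 libraries, by Pearson's r of log2 levels among 10590 genes. The points share 2 libraries, so r describes these libraries and carries no test. For Tmcc1 they were Cd44 (r = 0.927), an adhesion receptor, Slc35a5 (0.925), Il1rn (0.924), the interleukin-1 receptor antagonist, Rasgrp4 (0.922) and Tfe3 (0.917), a lysosomal transcription factor. Il1rn had ratios of -1.71, -1.83 and -1.83 in immature neutrophils, mature neutrophils and monocytes, close to the -1.70, -1.77 and -1.64 of Tmcc1. Cd44 had -0.73, -0.57 and -0.57 in the same classes. For Tmcc2 they were Slfn14 (0.980), a ribosome-associated endonuclease gene, Ube2o (0.975), which encodes the ubiquitin ligase that clears ribosomes from reticulocytes, Sowaha (0.968), Epb41 (0.960), which encodes protein 4.1 of the membrane skeleton, and Ypel4 (0.958). In late erythroblasts these went from 597 to 243 CPM for Slfn14, from 953 to 384 CPM for Ube2o and from 1810 to 874 CPM for Epb41, with log2 ratios of -1.30, -1.31 and -1.05 beside -1.28 for Tmcc2. Sowaha went from 499 to 101 CPM and Ypel4 from 417 to 139 CPM, ratios of -2.30 and -1.58 that were further from 0. Both libraries entered the choice, so a like ratio is partly built in, and Ube2o, Epb41 and Ypel4 are also on the erythroid list. For Tmcc3 the values were lower, from Tulp4 (0.865) and Gpr183 (0.862), a receptor that guides B cells, to St6gal1 (0.835), and sparse counts limit them. Between members r was -0.14 for Tmcc1 with Tmcc2, 0.22 for Tmcc1 with Tmcc3 and -0.17 for Tmcc2 with Tmcc3.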

How the data were processed

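The 2 libraries of single cells were read as UMI counts per gene and barcode deposited by the authors. Per the file headers they come from Cell Ranger 6.0.0, and the submitters' processing notes name GRCm38. Members, lists and markers were chosen with earlier results of these data known. Kept cells passed minima of 500 UMIs and 200 genes with mitochondrial UMIs below 10%. Scrublet (scanpy 1.11.5) removed 701 (4.53%) and 251 (1.95%) as doublets, where 13.7% and 11.6% were expected at 0.8% per 1000 barcodes, so doublets remained. Leiden clusters (resolution 1, 2000 variable genes, 30 components, 15 neighbours) took the best-scoring type with at least 3 detected markers. Clusters with median UMIs under 0.2 of their library's were left unnamed, a choice made with the data in view. Free RNA was not corrected. Counts were summed by class and library and given with exact Poisson, conditional binomial (ratios) and Clopper-Pearson (shares) intervals. Genes with at least 50 UMIs in a class were compared with a pseudocount of 1 CPM, with code tested on simulated data. Positions came from GENCODE, which matched 32158 features (99.6%). Named genes were the members, the 5 most alike genes of each, the 3 highest and 3 lowest list genes in the neutrophil lineage, monocytes and erythroid cells, and the atlastins, Lnpk and Coro1c; some of these are not printed. With 1 library per group, genotype and library cannot be told apart.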

Additional observations from a re-analysis of the deposited data

Results flagged for a closer look

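The Tmcc2 values went opposite ways in different cells of the same libraries, and these differences between groups of cells were not tested. In megakaryocytes the log2 ratio, MYC over control, was 1.68 (0.72 to 2.73), where it was -1.28 in late erythroblasts, and 32 of the 33 UMIs behind the MYC level came from 1 cell. Among late erythroblasts in the finer division, cluster 15, with 120 control cells and 210 of the MYC library, had a ratio of 1.14 (0.79 to 1.49), while cluster 2, with 347 and 85 cells, had -0.28 (-0.37 to -0.19).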

How the results depend on the processing

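Over 38 ratios of the members with 419 alternatives, 334 stayed within the counting interval and 75 left it. A further 10 turned the sign of a ratio whose interval excluded 0. Causes were not tested. The 38 count pooled lineages beside their stages. Ratios in megakaryocytes, plasmacytoid dendritic cells and B progenitors, and those with fewer than 50 UMIs, had no alternatives. Ratios whose interval included 0 changed sign under 13 alternatives, over 6 ratios: Tmcc1 in late erythroblasts (0.32, from -0.68 with doublets kept to 1.37 with own clustering), Tmcc2 in early erythroid cells (-0.51), conventional dendritic cells (0.23) and stem or multipotent progenitors (0.10), and Tmcc3 in B lineage (-0.86) and plasma cells (0.033). Tmcc1 in the neutrophil lineage (-1.71) was -1.44 with median-of-ratios scaling, -1.78 as the mean of each cell's CPM, -1.65 with each library clustered on its own and -1.79 with cells under 5% mitochondrial UMIs. In monocytes (-1.64) it was -1.48, -1.23 and -1.80 with median-of-ratios scaling, own clustering and the mitochondrial limit, -1.77 without the 20 most abundant genes and -1.54 at the control's mix of clusters. Tmcc3 in monocytes stayed between -2.26 and -1.54. Tmcc2 in late erythroblasts (-1.28) was -1.93 with median-of-ratios scaling, -1.67 with each library clustered on its own, -1.51 without haemoglobin genes, -0.87 and -0.84 at Leiden resolutions 2 and 0.5, -0.68 by markers alone, -0.60 with cells under 5% mitochondrial UMIs, -0.31 with doublets kept and -0.14 at minima of 1000 UMIs and 500 genes. Among alternatives added after the data were seen it was -0.28 in cluster 2 and 1.14 in cluster 15 of resolution 2, and 0.27, -1.84 and -1.02 at 10 to 30%, 30 to 50% and 50 to 70% haemoglobin. Other ratios with an interval excluding 0 that turned sign were Tmcc1 in erythroid cells (0.00, or 0.000385, as the mean of each cell's CPM), Tmcc2 in haemoglobinizing erythroblasts (0.038 with doublets kept, 0.84 with at least 1000 UMIs), Tmcc2 in macrophages (0.95 with doublets kept, 1.03 under 5% mitochondrial UMIs, 1.13 with at least 1000 UMIs) and Tmcc3 in macrophages (0.17 with each library clustered on its own, 0.033 with at least 1000 UMIs). The Tmcc2 step from early erythroid cells to late erythroblasts in the control (8.11) was 8.67 without the 20 most abundant genes, 8.65 without haemoglobin genes, 7.69 at resolution 2, 8.59 with each library clustered on its own, 7.19 by markers alone, 7.80 with doublets kept, 7.55 under 5% mitochondrial UMIs and 8.84 with at least 1000 UMIs. In the MYC library (6.70) it was 7.29 without the 20 most abundant genes, 7.35 as the mean of each cell's CPM, 7.38 with doublets kept and 8.33 with at least 1000 UMIs. Genes at least 2-fold lower were 197 in the neutrophil lineage, 263 in monocytes and 173 in late erythroblasts. In the neutrophil lineage they were 536 with a pseudocount of 0.1 CPM, 1629 at 1.5-fold and 76 with median-of-ratios scaling, and in monocytes 443, 1473 and 165. In late erythroblasts they were 284 and 109 with at least 10 and 200 UMIs, 366 at 1.5-fold and 490 with median-of-ratios scaling. The share of neutrophil-lineage cells with a Tmcc1 UMI was 87.2%, 29.0% and 62.8% in the control unthinned and thinned to 500 and 2000 UMIs, and 59.5%, 10.6% and 29.6% with MYC. The share of late erythroblasts with a Tmcc2 UMI was 77.6%, 60.7% and 81.6% in the control in the same order, and 54.8% unthinned and 56.6% at 2000 UMIs with MYC. No paired analysis was possible because each group had 1 library, and no library could be left out. Depth limits Tmcc3 most, with 586 and 383 UMIs.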

Other observations

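The barcodes left out as having at least 10% mitochondrial UMIs showed the same order for Tmcc1, with 187 CPM (174 to 201) in 1609 control barcodes and 120 CPM (110 to 130) in 1600 of the MYC library. Tmcc3 was at 7.48 CPM (5.08 to 10.6) and 8.66 CPM (6.16 to 11.8) in these barcodes. Called doublets of the control held Tmcc2 at 128 CPM (120 to 136) and those of the MYC library at 5.78 CPM (3.31 to 9.39). An unnamed cluster led by Cxcl12, Igfbp5 and Mgp, with 93 control cells and 109 of the MYC library, had Tmcc1 at 348 and 49.5 CPM, a log2 ratio of -2.81 (-4.00 to -1.81), and Tmcc3 at 40.3 and 38.5 CPM, a ratio of -0.07 (-1.76 to 1.59). An unnamed cluster led by Ifit1, Ifit3 and Rsad2, with 64 and 14 cells, had Tmcc1 at 1032 and 351 CPM, a ratio of -1.56 (-2.22 to -0.95). The unnamed cluster of few UMIs had Tmcc1 at 175 and 55.8 CPM, a ratio of -1.65 (-1.94 to -1.36).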
